A study of Homo sapiens with 9 samples.

Results

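The insulin-like growth factor (IGF) binding proteins of MCF-10A cells were followed in 9 RNA-seq libraries. The 6 genes IGFBP2, IGFBP3, IGFBP4, IGFBP5, IGFBP6 and IGFBP7 were found among the 60609 genes of the count tables by matching Ensembl identifiers, without their version, to GENCODE symbols. All 6 passed the filter on low counts, which left 26412 genes. MCF-10A is a non-tumorigenic human breast epithelial line. Its unedited parental cells (WT) were set against knock-in cells with E545K in the helical domain, or H1047R in the kinase domain, of PIK3CA, the catalytic subunit p110-alpha of PI 3-kinase. Each genotype had 3 libraries of total RNA depleted of ribosomal RNA. Culture medium held 5% horse serum, with epidermal growth factor (EGF) at 20 ng/ml for WT and at 0 ng/ml for both knock-in lines. For the last 24 h all 3 genotypes received 0.2 ng/ml EGF and 1% charcoal-stripped serum. Insulin at 10 µg/ml, hydrocortisone at 0.5 µg/ml and cholera toxin at 100 ng/ml were present throughout in every group. Genotype and earlier EGF supply cannot be told apart. The labels do not give the number of clones behind each knock-in line, nor whether the 3 libraries of a genotype came from separate cultures. The p-values therefore measure only how these libraries vary, and that spread may be technical.

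IGF binding proteins are secreted. IGFBP2 to IGFBP6 hold IGF1 and IGF2 with high affinity, which keeps these ligands from the receptor IGF1R or carries and releases them near it, and IGFBP7 binds IGFs weakly. Proteases such as pappalysin cut the binding proteins and free the ligand. Signals from IGF1R run through insulin receptor substrates to PI 3-kinase, the enzyme whose gene was edited here.

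WT libraries totalled 95091894 to 136132315 counts, E545K libraries 95533991 to 134245702 and H1047R libraries 377093507 to 605972919. A count of 3, the most that a count of 0 allows, was 0.00520 to 0.0318 CPM in the 9 libraries, for counting error only. CPM relates a gene's counts to the TMM-scaled total of its library. The basal epithelial markers KRT5, KRT14, KRT17, TP63, ITGA6 and LAMB3 were all present and summed to 23192 to 29454 CPM per library. The epithelial markers EPCAM, CDH1, KRT8, KRT18 and KRT19 summed to 1939 to 2026 CPM in WT and were lower in both knock-in lines, at 923 to 930 in E545K and 976 to 1115 in H1047R. KRT8 alone averaged 997 CPM in WT, 239 in E545K and 258 in H1047R. Fibroblast markers summed to 93.8 to 97.4 CPM in WT, 67.1 to 70.1 in E545K and 69.5 to 85.9 in H1047R. Of these 7 markers, 5 were under 1 CPM in every library. The other markers moved in opposite directions. DCN averaged 47.0 CPM in WT, 7.76 in E545K and 13.1 in H1047R, and COL1A1 averaged 47.4, 59.5 and 66.55. Endothelial markers had 8.41 to 10.2, 10.4 to 12.1 and 22.0 to 23.6 CPM in the same order, and immune markers 15.9 to 16.6, 11.97 to 12.7 and 6.99 to 8.65, with 3 of 4 and 3 of 5 under 1 CPM. The endothelial marker KDR alone averaged 8.66 CPM in WT, 10.7 in E545K and 22.5 in H1047R. Adipocyte markers reached 0.463 to 1.76 CPM. No marker of these lists was at 0 in every library, and their part in the changes of the members was not tested. The biological coefficient of variation was 0.0328 in WT, 0.0289 in E545K and 0.212 in H1047R. The main fit shared the spread over the 3 groups, at 0.118, so no SE or p-value reflects the spread of its compared groups alone. H1047R libraries stood in a table of their own, so table and genotype cannot be told apart. WT replicate 1 stood apart in IGFBP4 and IGFBP5, and every change of a member is given with and without it.

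The family had 1 dominant member in WT and changed in both amount and composition in the knock-in lines. Levels of different genes were compared as CPM per kilobase of exon. Added over the 6 members, WT reached a level of 149 ± 2.49, E545K of 71.9 ± 2.58 and H1047R of 12.6 ± 2.64 (SD, n = 3 each). IGFBP6, which prefers IGF2 over IGF1, supplied 89.6% of the sum in WT, 81.9% in E545K and 53.6% in H1047R. The share of IGFBP7 was 8.54%, 11.2% and 27.1% in the same order. It includes any reads of POLR2B from the 13.5% of IGFBP7 exon bases shared with that opposite-strand gene. Their part was not tested. IGFBP2 supplied 0.920%, 5.30% and 7.41%, and IGFBP3 supplied 0.315%, 1.28% and 10.9%. IGFBP4 and IGFBP5 each stayed under 1% of the sum in all 9 libraries.

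**Figure D1:**
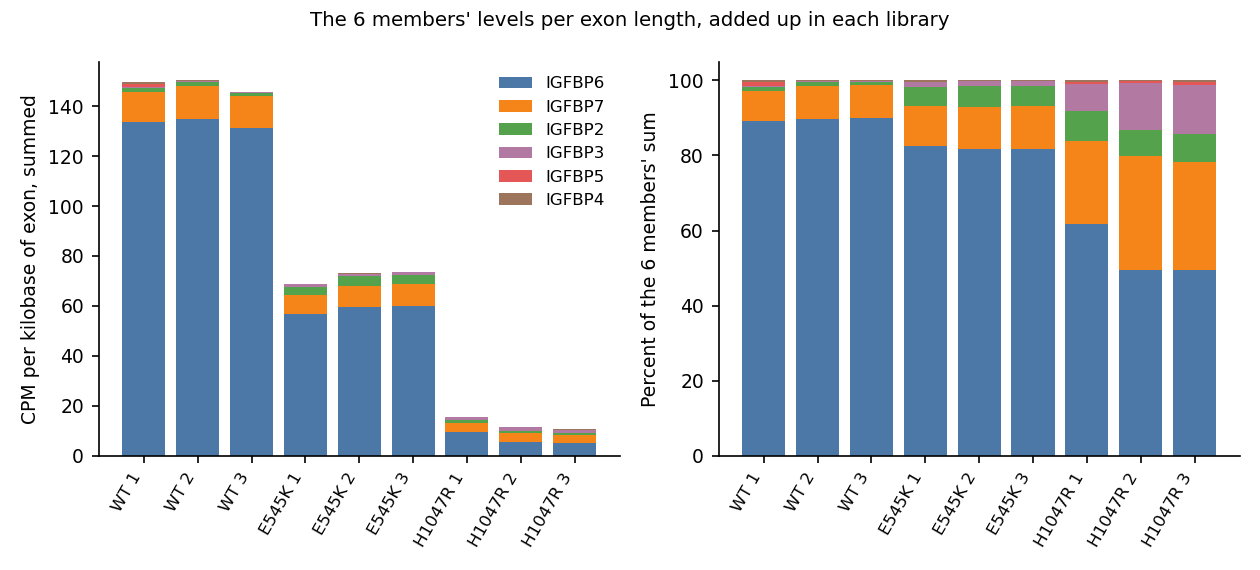
Summed level of the 6 members (CPM per kilobase of exon, y axis) in each of the 9 libraries (x axis), stacked by member, with the same stacks as a percentage of the sum beside them. IGFBP6 fills 89.6% of the WT stacks on average and 53.6% of the H1047R stacks, whose sum averages 12.6 against 149 in WT.

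The order of the members by level per kilobase also differed between genotypes. In WT it ran from IGFBP6 (133 ± 1.91) to IGFBP7 (12.7 ± 0.563), IGFBP2 (1.37 ± 0.0606) and IGFBP3 (0.468 ± 0.0435) (SD, n = 3). IGFBP4 and IGFBP5 were below IGFBP3 in WT replicates 2 and 3, at 0.115 in both for IGFBP4 and at 0.0523 and 0.0525 for IGFBP5, but above it in WT replicate 1, at 0.849 and 1.41. In E545K the order was IGFBP6 (58.9), IGFBP7 (8.04), IGFBP2 (3.81), IGFBP3 (0.917), IGFBP4 (0.161) and IGFBP5 (0.0558), with no overlap between neighbours. In H1047R, IGFBP6 (6.87 ± 2.40) still stood above IGFBP7 (3.34 ± 0.277), whose level includes any POLR2B reads from shared exon bases. IGFBP3 (1.32, from 1.15 to 1.45) followed, and it overlapped IGFBP2 (0.941, from 0.787 to 1.23). IGFBP5 (0.0752) and IGFBP4 (0.0481) came last and overlapped each other.

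A gene was called changed at an adjusted p under 0.05 (edgeR's quasi-likelihood test, Benjamini-Hochberg over all 26412 genes). In E545K against WT, 5 of the 6 members were called, 2 higher and 3 lower, where 36.6% of all genes tested were called (17.7% higher and 18.9% lower). In H1047R against WT, all 6 were called, 1 higher and 5 lower, where 55.5% of all genes were called (27.4% higher and 28.1% lower). Both comparisons use the same WT libraries. Without WT replicate 1 the counts were 4 of 6 in each, since IGFBP5 left the first, and IGFBP4 and IGFBP5 the second. In that fit 30.4% of all genes were called in E545K against WT and 49.1% in H1047R against WT. Changes of at least 2-fold were called in 3 members in E545K against WT, beside 7.10% of all genes. They were 1 higher, beside 4.52%, and 2 lower, beside 2.58%. In H1047R against WT 5 members changed at least 2-fold, beside 17.4% of all genes, 1 of them higher, beside 10.0%, and 4 lower, beside 7.39%. These counts rest in part on WT replicate 1: without it they were 2 members beside 6.39% of all genes in E545K, and 3 members beside 15.9% in H1047R. The median log2 change over the 6 members was -0.91 in E545K against WT and -2.35 in H1047R against WT, beside 0.0031 and 0.021 over all genes. The members' median without WT replicate 1 turned to 0.29 in E545K and became -0.91 in H1047R. Scaling by library totals alone moved the median of all genes in H1047R against E545K from 0.016 to -0.12, and each change keeps its direction relative to either.

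**Figure D2:**
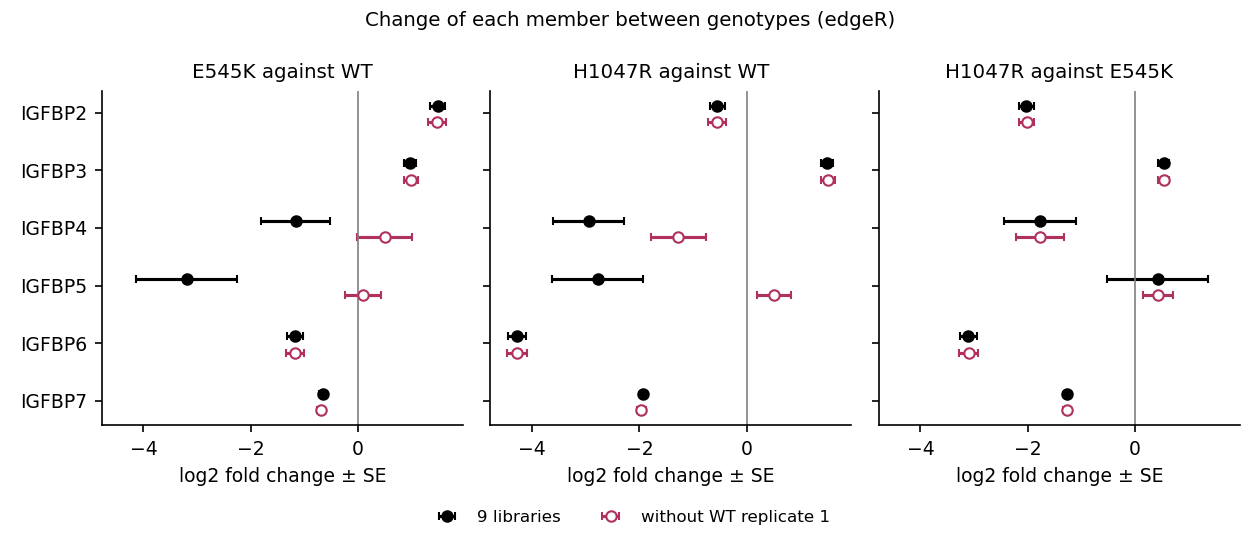
Log2 fold change (x axis, bars ± SE) of each member (y axis) in the 3 comparisons between genotypes, from all 9 libraries (filled) and without WT replicate 1 (open). IGFBP2, IGFBP3, IGFBP6 and IGFBP7 lie at nearly the same place in both fits, while IGFBP5 in E545K against WT moves from -3.20 to 0.090.

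IGFBP6 and IGFBP7 fell in both knock-in lines, and further in H1047R than in E545K. IGFBP6 (ENSG00000167779.9, hg38 chromosome 12, 53097436 to 53102345, plus strand, 1346 exon bases) was at 180, 182 and 177 CPM in WT replicates 1 to 3. It was at 76.4, 80.3 and 81.0 CPM in E545K and at 13.0, 7.75 and 7.05 CPM in H1047R. The 3 genotypes did not overlap, and H1047R replicate 1 was the highest of its group. IGFBP6 was 2.26 times lower in E545K than in WT, a log2 change of -1.18 ± 0.15 (SE, n = 3 each, edgeR adjusted p = 1.80e-05). In H1047R it was 19.5 times lower than in WT, at -4.29 ± 0.17 (edgeR adjusted p = 2.08e-11). The change in H1047R was -4.60 without H1047R replicate 1 and -4.29 without WT replicate 1. In bulk RNA, fewer cells that express a gene and less RNA per cell cannot be told apart.

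The promoters of all matched members were searched for the same motifs. That of IGFBP6 is described here because this gene showed the largest change of the family. Promoters are from RefSeq (GRCh38.p14), taken as 250 bases before each annotated start, and 5 of the 6 members were matched, IGFBP7 not. Motifs were searched on both strands, and no matches of different motifs overlapped in the windows printed. The FOXO core GTAAACA stands in 2.98% of all 35116 promoters. FOXO transcription factors are held out of the nucleus by AKT, which acts downstream of PI 3-kinase. The TEAD core GGAATG stands in 11.9% of promoters, the AP-1 site TGANTCA in 6.57%, the GC box GGGCGG in 42.6% and the TATA box TATAAA in 10.7%. IGFBP4 held 1 TATA box and 1 GC box, IGFBP5 held 1 TEAD core, and IGFBP2 and IGFBP3 held GC boxes only. IGFBP6 was the member with a FOXO core among the 5 matched, and it also held 1 TEAD core and 1 GC box. Of its window, 231 bases are annotated as part of an untranslated exon of another transcript, so only the 30 bases around the FOXO core (in capitals, plus strand, chr12:53097470-53097499) are shown. These 30 bases lie within the span of IGFBP6 given above, which starts at 53097436. The match describes the letters in this window and no binding was measured.
IGFBP6: caatttgggaaGTAAACAgaaactggaaag

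IGFBP7 (ENSG00000163453.11, hg38 chromosome 4, 57030773 to 57110385, minus strand, 1930 exon bases), a secreted protein of the vessel wall and epithelia, was at 23.4, 25.6 and 24.5 CPM in WT. It was at 14.3, 15.99 and 16.2 CPM in E545K and at 6.63, 6.87 and 5.85 CPM in H1047R. Again the 3 genotypes formed separate ranges. IGFBP7 was 1.58 times lower in E545K than in WT (log2 change -0.66 ± 0.07, edgeR adjusted p = 2.70e-06). It was 3.79 times lower in H1047R than in WT (-1.92 ± 0.07, edgeR adjusted p = 8.71e-12). Leaving WT replicate 1 out gave -0.70 and -1.96.

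Counting ignored strand, and 18.3% of the exon bases of IGFBP7 are shared with genes of the opposite strand. POLR2B, a subunit of RNA polymerase II, shares 13.5% of the exon bases of IGFBP7, and the antisense RNA IGFBP7-AS1 shares 4.87%. POLR2B averaged 98.6 CPM in WT, 113 in E545K and 109 in H1047R. IGFBP7-AS1 was at 5.73, 6.35 and 5.93 CPM in WT. It was at 2.5, 3.03 and 2.5 CPM in E545K (log2 change -1.17 ± 0.14, edgeR adjusted p = 1.01e-05). In H1047R it was at 0, 0.0104 and 0.00576 CPM, close to the floor of these libraries. Counts of the sense and antisense genes were both lower in the knock-in lines. A read on their shared bases counts for both genes, so these falls are not separate measurements. In H1047R IGFBP7-AS1 had 0, 6 and 3 counts and IGFBP7 had 2305, 3965 and 3045. Few IGFBP7 counts can thus come from the bases shared with IGFBP7-AS1 in H1047R. Reads were counted for every overlapping gene, so POLR2B reads from the shared bases also count for IGFBP7. In H1047R POLR2B stood at 109 CPM against 6.45 for IGFBP7. The part of such reads in the level of IGFBP7 and in the size of its fall was not tested.

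**Figure D3:**
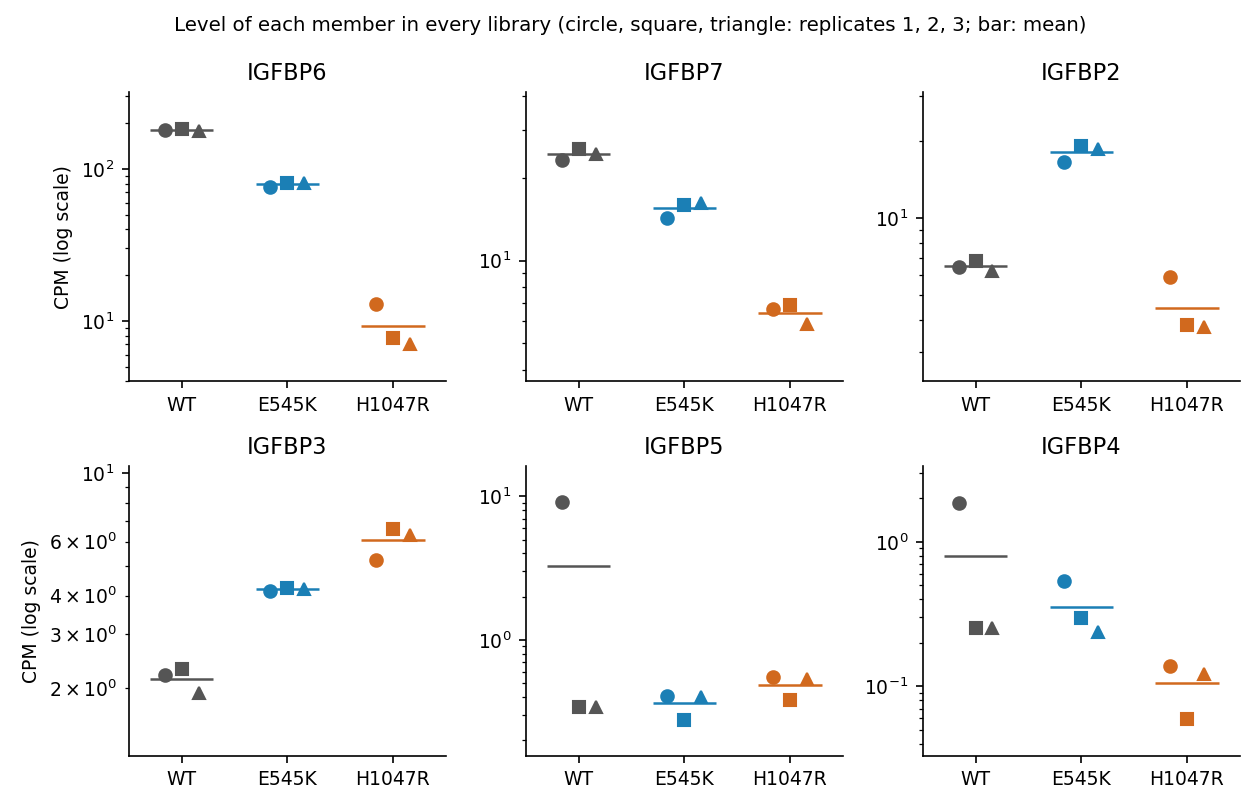
Level in CPM (log y axis, its own range in each panel) of each of the 6 members in the 9 libraries by genotype (x axis), with circles, squares and triangles for replicates 1, 2 and 3 and a bar at the mean. IGFBP6 and IGFBP7 step down from WT to E545K to H1047R, IGFBP3 steps up, and the circle of WT replicate 1 stands far above the other libraries for IGFBP5, at 9.10 CPM.

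IGFBP2 moved in opposite directions in the knock-in lines. IGFBP2 (ENSG00000115457.10, hg38 chromosome 2, 216632828 to 216664436, plus strand, 4742 exon bases) binds IGF2 more tightly than IGF1 and carries an integrin-binding motif. In WT it was at 6.45, 6.79 and 6.22 CPM. It was at 16.6, 19.1 and 18.5 CPM in E545K and at 5.85, 3.8 and 3.73 CPM in H1047R. E545K lay above every other library and H1047R below every other library, with H1047R replicate 1 nearest to WT. IGFBP2 was 2.79 times higher in E545K than in WT (log2 change 1.48 ± 0.14, edgeR adjusted p = 7.71e-07). It was 1.46 times lower in H1047R than in WT (-0.55 ± 0.14, edgeR adjusted p = 0.00347). Without H1047R replicate 1 this second change was -0.78, and without WT replicate 1 it was -0.55. The difference between the knock-in lines had the test of its own described with H1047R against E545K.

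IGFBP3, the main IGF carrier of serum, rose in both knock-in lines. IGFBP3 (ENSG00000146674.15, hg38 chromosome 7, 45912245 to 45921874, minus strand, 4571 exon bases) was at 2.20, 2.30 and 1.92 CPM in WT. It was at 4.14, 4.23 and 4.21 CPM in E545K and at 5.24, 6.61 and 6.30 CPM in H1047R. No library of one genotype reached the range of another. IGFBP3 was 1.96 times higher in E545K than in WT (log2 change 0.97 ± 0.11, edgeR adjusted p = 4.96e-06). In H1047R it was 2.83 times higher than in WT (1.5 ± 0.10, edgeR adjusted p = 1.16e-08). Leaving out WT replicate 1 gave 0.98 and 1.52.

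Many genes of the chromosome 7 region that holds IGFBP3 were higher in E545K too. IGFBP3 lies in the first 60 Mb of chromosome 7, a region chosen with earlier results of these data known, where 428 genes were tested. Their median log2 change in E545K against WT was 0.77, with 289 called higher and 8 lower, beside 17.7% and 18.9% of all genes. The middle 50% of the region ran from 0.47 to 1.07. The 867 genes tested beyond 60 Mb had a median of -0.04. IGFBP3 exceeded the regional median by 0.20, and 31.8% of the 428 genes had a larger change. In H1047R against WT the regional median was 0.15, with 157 called higher and 101 lower, beside 27.4% and 28.1% of all genes. There IGFBP3 exceeded the median by 1.35, and 8.41% of the genes had a larger change. IGFBP1, the neighbour 18.6 kb away, had 8, 2 and 0 counts in WT, 0, 0 and 1 in E545K and 0 in each H1047R library, too few to test. The nearest tested protein-coding gene on each side of IGFBP3, ADCY1 and TNS3, was not called in E545K against WT. Their changes were 0.40 ± 0.63 and 0.04 ± 0.04 (edgeR adjusted p = 0.678 and 0.447), with ADCY1 at 0.129 CPM in WT. In H1047R against WT ADCY1 was not called and TNS3 fell (-0.60 ± 0.04). The part of the region in the value of IGFBP3 was not tested.

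**Figure D4:**
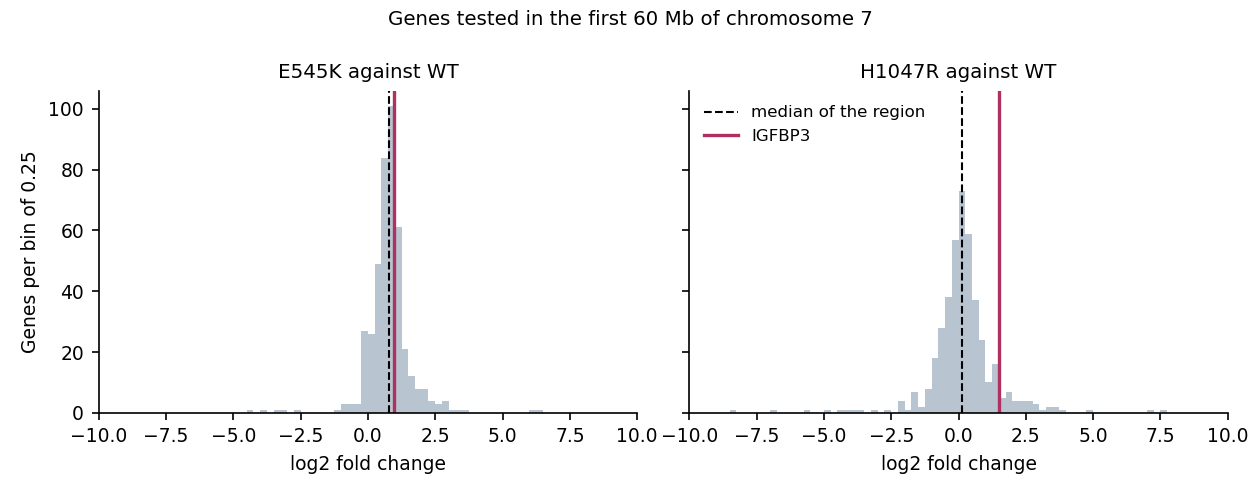
Number of genes (y axis, bins of 0.25) by log2 fold change (x axis) among the 428 genes tested in the first 60 Mb of chromosome 7, in E545K against WT and in H1047R against WT. The dashed line marks the regional median (0.77 and 0.15) and the solid line IGFBP3, which lies close to the median in E545K and 1.35 above it in H1047R.

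The promoters of IGFBP2 and IGFBP3, the members called higher in a knock-in line, are shown for reference. Of the 3 annotated starts of IGFBP2, the window before the second (chr2:216633170-216633419, plus strand) has 69.2% G and C and 22 CpG dinucleotides, beside medians of 58% and 11 over all promoters. The windows before the first and the third have 56.8% and 56.4% G and C, with 7 and 4 CpG. The IGFBP3 window (chr7:45921273-45921522, minus strand) has 76% G and C and 32 CpG, more than in 90.5% of promoters. IGFBP4, which was not called higher, has 71.6% G and C and 24 CpG. In the windows printed, which lie within the gene spans given above, IGFBP2 holds 1 GC box and IGFBP3 holds 2, in capitals. The 4 other motifs have no match in these letters.
IGFBP2: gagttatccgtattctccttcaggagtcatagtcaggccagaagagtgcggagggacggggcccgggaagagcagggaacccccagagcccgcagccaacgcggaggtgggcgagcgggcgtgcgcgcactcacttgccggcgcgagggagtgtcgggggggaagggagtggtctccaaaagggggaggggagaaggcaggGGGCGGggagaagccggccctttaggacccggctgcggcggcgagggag
IGFBP3: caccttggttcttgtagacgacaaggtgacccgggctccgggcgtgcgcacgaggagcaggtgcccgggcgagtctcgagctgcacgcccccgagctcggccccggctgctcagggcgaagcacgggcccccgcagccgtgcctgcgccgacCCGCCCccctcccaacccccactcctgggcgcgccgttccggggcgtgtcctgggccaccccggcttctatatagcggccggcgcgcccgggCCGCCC

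IGFBP5 and IGFBP4 were high in WT replicate 1 alone. IGFBP5 (ENSG00000115461.5, hg38 chromosome 2, 216672105 to 216695549, minus strand, 6466 exon bases), which binds extracellular matrix, ends 7.67 kb from the end of IGFBP2, on the other strand. It was at 9.10, 0.338 and 0.339 CPM in WT. E545K had 0.407, 0.278 and 0.399 CPM and H1047R had 0.547, 0.378 and 0.534 CPM. WT replicate 1 was far above every other library, and the remaining WT libraries lay within the E545K range. With all libraries the log2 change was -3.20 ± 0.94 in E545K against WT (edgeR adjusted p = 0.0144) and -2.78 ± 0.84 in H1047R against WT (edgeR adjusted p = 0.0112). Without WT replicate 1 both signs turned, to 0.090 ± 0.33 (edgeR adjusted p = 0.877) and 0.51 ± 0.32 (edgeR adjusted p = 0.203). An unnamed gene of the opposite strand shares 4.61% of the exon bases of IGFBP5.

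IGFBP4 (ENSG00000141753.7, hg38 chromosome 17, 40443450 to 40457725, plus strand, 2205 exon bases), a substrate of pappalysin, was at 1.87, 0.254 and 0.255 CPM in WT. E545K had 0.533, 0.296 and 0.239 CPM and H1047R had 0.138, 0.0589 and 0.121 CPM. H1047R lay below every other library, and E545K overlapped WT. Counts were few, 24 each in WT replicates 2 and 3 and 34 to 63 in H1047R. The log2 change in H1047R against WT was -2.94 ± 0.67 (edgeR adjusted p = 0.00156), and -1.27 ± 0.51 without WT replicate 1 (edgeR adjusted p = 0.0528). In E545K against WT it was -1.17 ± 0.64 (edgeR adjusted p = 0.183), and 0.49 ± 0.52 without WT replicate 1 (edgeR adjusted p = 0.529). Among the 6 members, 4 had libraries that did not overlap in E545K against WT and 5 in H1047R against WT, beside 54.2% and 60.1% of all genes.

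WT replicate 1 held 12 genes, or 0.0454% of those tested, at 1 CPM or more and at least 4 times the other WT libraries. By the same rule WT replicates 2 and 3 held 0 each. These 12 genes were TFF1 at 10.0 CPM (0.507 and 0.742 in the other WT libraries), KRT19 at 9.87, IGFBP5, PREX1 at 8.69, NPY1R at 7.87, GFRA1 at 2.74, IGFBP4, PRLR at 1.84, SPTSSB at 1.83, DSCAM-AS1 at 1.72, TSPYL5 at 1.25 and HSPB8 at 1.09. TFF1 is a textbook estrogen-responsive gene, and KRT19 is a keratin of luminal cells. All 10 markers fixed for hormone-receptor luminal cells were higher in WT replicate 1 than in both other WT libraries, 3 of them at least 4 times. Their summed level was 150 CPM in WT replicate 1, 122.6 and 120 in WT replicates 2 and 3, 125 to 126 in E545K and 189 to 203 in H1047R. Single markers moved both ways in H1047R. GREB1 averaged 106 CPM there against 41.8 in WT, and XBP1 averaged 31.4 against 45.6. No marker was at 0 in every library, and TFF1 was at 0 in all 3 H1047R libraries. IGFBP5 was 26.8 times and IGFBP4 7.37 times the mean of the other WT libraries, whereas the other 4 members were at 0.935 to 1.04 times. Whether RNA of other cells is present in WT replicate 1 was not tested, and the WT values of IGFBP4, IGFBP5 and IRS1 from this library hold subject to that.

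**Figure D5:**
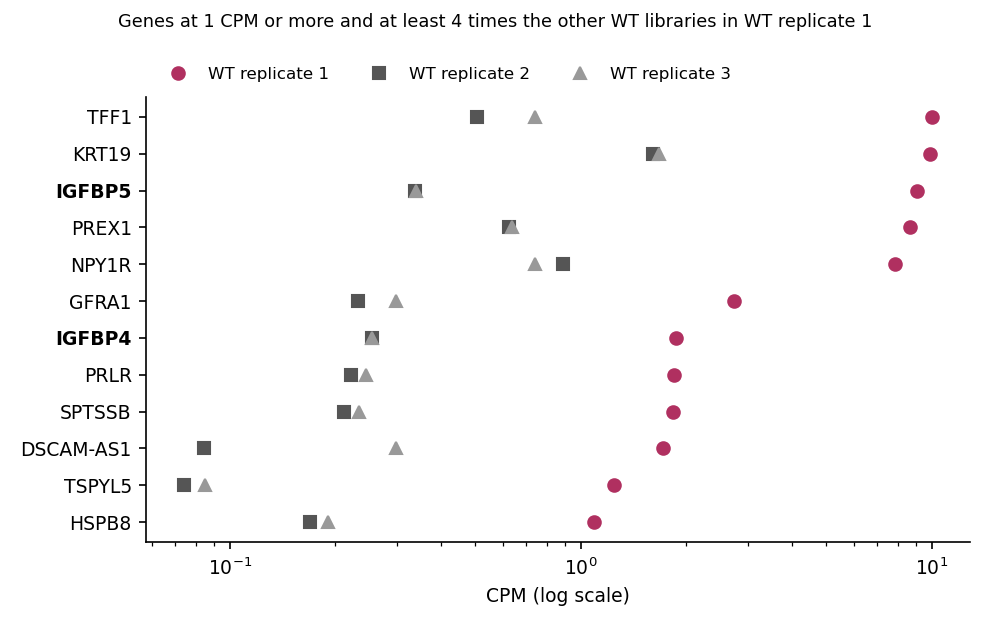
Level in CPM (log x axis) of the 12 genes (y axis) that were at 1 CPM or more and at least 4 times the other WT libraries in WT replicate 1, in each WT library. IGFBP5 is the third by level, at 9.10 CPM against 0.338 and 0.339, and IGFBP4 the seventh, at 1.87 against 0.254 and 0.255.

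H1047R was compared with E545K to ask how the knock-in lines differ. Of the 6 members, 5 were called, 1 higher and 4 lower in H1047R, where 53.2% of all genes tested were called (25.9% higher and 27.3% lower). At least 2-fold changes were called in 4 members, beside 15.0% of all genes. Of these 0 were higher, beside 7.74%, and 4 were lower in H1047R, beside 7.24%. The largest was that of IGFBP6, at 7.05 to 13.0 CPM in H1047R against 76.4 to 81.0 in E545K, 8.62 times lower (log2 change -3.11 ± 0.16, edgeR adjusted p = 6.36e-10). IGFBP2 was 4.07 times lower in H1047R (-2.03 ± 0.13, edgeR adjusted p = 9.68e-09), and IGFBP7 was 2.40 times lower (-1.27 ± 0.07, edgeR adjusted p = 1.26e-09). IGFBP4 was lower at few counts (-1.78 ± 0.67, edgeR adjusted p = 0.0364). This call was lost without E545K replicate 1 (-1.35, edgeR adjusted p = 0.173), without E545K replicate 2 (-1.90, 0.0551) and without H1047R replicate 2 (-1.47, 0.134). It was kept without WT replicate 1 (-1.77 ± 0.45, edgeR adjusted p = 0.00490), and in 12 of the 16 alternatives that tested IGFBP4.

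IGFBP3 was 1.45 times higher in H1047R than in E545K (0.53 ± 0.10, edgeR adjusted p = 0.000342), while the region around it on chromosome 7 had a median of -0.66. IGFBP5 differed by 0.42 ± 0.94 (edgeR adjusted p = 0.735), and its ranges overlapped. Its difference without WT replicate 1 was 0.42 ± 0.27 (edgeR adjusted p = 0.214). Libraries of the knock-in lines did not overlap in 5 of the 6 members, beside 58.8% of all genes. Without WT replicate 1, which otherwise adds to the shared estimate of spread, 5 members were called beside 51.3% of all genes. At least 2-fold changes were then called in 4 members, beside 14.8%.

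Ligands of the family were scarce in these cells. Of 6 genes for ligands and carriers, 3 were tested, and 1 was called lower in each knock-in line against WT, IGF2. Over all genes 18.9% were called lower in E545K and 28.1% in H1047R. IGF2 was at 0.472 CPM in WT, 0.0938 in E545K and 0.0475 in H1047R on average, a log2 change of -2.34 ± 0.43 (edgeR adjusted p = 0.000574) and -3.31 ± 0.43 (edgeR adjusted p = 9.15e-06). Other genes share 72.1% of the exon bases of IGF2, so its reads cannot be assigned to it alone. IGF1 was at 0.0569, 0.0531 and 0.101 CPM, and 82.4% of its exon bases are shared. The median log2 change of the 3 tested genes was -0.14 in E545K and 0.17 in H1047R against WT, and 0.52 and 0.62 without WT replicate 1.

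Among 10 genes for IGF and insulin receptors and their adaptors, 8 were tested. In each of the 3 comparisons 3 were called higher and 3 lower, and without WT replicate 1 the lower calls in E545K against WT were 2. These 6 of 8 stand beside 36.6%, 55.5% and 53.2% of all genes called in E545K against WT, H1047R against WT and H1047R against E545K. The median log2 changes were -0.07, -0.01 and -0.04. IGF1R, the receptor through which IGFs signal, had 237 ± 1.38 CPM in WT against 224 ± 2.10 in E545K and 228 ± 11.5 in H1047R (SD, n = 3). It was not called in either comparison with WT (-0.08 ± 0.04 and -0.05 ± 0.04, edgeR adjusted p = 0.167 and 0.317). IRS1, which links the receptors to PI 3-kinase, was at 2.68, 0.761 and 0.986 CPM in WT. E545K had 4.03, 4.46 and 3.70 CPM and H1047R had 9.85, 8.38 and 9.33 CPM. IRS1 was thus also highest among WT libraries in replicate 1, yet that library lay below all knock-in libraries. Its log2 change was 1.40 ± 0.29 in E545K (edgeR adjusted p = 0.00149) and 2.57 ± 0.28 in H1047R (edgeR adjusted p = 1.67e-06). Leaving out WT replicate 1 moved these to 2.21 ± 0.14 (edgeR adjusted p = 8.79e-08) and 3.39 ± 0.14 (edgeR adjusted p = 3.95e-10). GRB14, an adaptor that inhibits the insulin receptor, was at 11.1 CPM in WT, 10.6 in E545K and 5.49 in H1047R, and it fell in H1047R (-1.02 ± 0.09, edgeR adjusted p = 1.27e-07).

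Of 20 proteases that cut binding proteins, or their inhibitors, 17 were tested. In E545K against WT 4 were higher and 7 lower, and in H1047R against WT 5 were higher and 8 lower. Over all genes 17.7% were higher and 18.9% lower in E545K, and 27.4% and 28.1% in H1047R. The lower calls were 6 and 5 without WT replicate 1. The median log2 changes were -0.06 and -0.11, beside 0.0031 and 0.021 over all genes. Gelatinase MMP2 fell in both lines, from 2.64 CPM in WT to 0.442 in E545K and 0.324 in H1047R (-2.58 ± 0.31 and -3.05 ± 0.30). Matrilysin MMP7 rose in both, from 0.445 CPM to 0.803 and 3.57 (0.84 ± 0.17 and 3.0 ± 0.16). The plasminogen activator PLAT fell from 20.1 CPM to 12 and 6.50, and the complement protease C1R from 19.1 to 9.09 and 9.27. The serine protease HTRA1 was lower in E545K and higher in H1047R, at 40.5 CPM in WT, 25.8 in E545K and 59.7 in H1047R. C1S had the same pattern, at 5.97, 3.45 and 7.45 CPM. PAPPA, pappalysin 1, which cuts IGFBP4, was named after its values were seen. Its level was 0.267 CPM in WT, 0.440 in E545K and 0.894 in H1047R, and it rose in H1047R (1.75 ± 0.27, edgeR adjusted p = 5.72e-05).

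All 12 genes for cell-surface, matrix and nuclear partners of the binding proteins were tested. In E545K against WT 2 were higher and 6 lower, and in H1047R against WT 2 were higher and 5 lower, where 36.6% and 55.5% of all genes were called in either direction. The counts without WT replicate 1 were 2 and 5, and 1 and 5. The median log2 change was -0.22 in both, beside 0.0031 and 0.021 over all genes. The integrin subunit ITGA5 was at 175 CPM in WT, 102 in E545K and 65.1 in H1047R (-0.78 ± 0.04 and -1.43 ± 0.04), in the same order as IGFBP6. The matrix protein THBS1, like IGFBP2, was higher in E545K and lower in H1047R than in WT, at 101 CPM in WT, 233 in E545K and 14.2 in H1047R (1.21 ± 0.08 and -2.83 ± 0.08). The nuclear receptor NR4A1 was at 52.1 CPM in WT, 229 in E545K and 56.5 in H1047R, and it rose in E545K (2.14 ± 0.09, edgeR adjusted p = 1.59e-10). Its change in H1047R was 0.12 ± 0.09 (edgeR adjusted p = 0.27).

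Finally, the genes nearest to each member in pattern over the 9 libraries were found among 14003 genes, by the root mean square difference of centred log2 CPM. The libraries share genotype and table, so likeness is a description. For IGFBP6 the nearest were the cytokine IL1B (difference 0.305), the semaphorin SEMA3B (0.327) and the transcription factor RUNX2 (0.329). IL1B was at 27.9 to 30.5 CPM in WT, 9.97 to 11.9 in E545K and 1.07 to 1.23 in H1047R. IGFBP7 lay nearest to the microtubule-associated gene MAP1B (0.0613), AMPD3 (0.0701) and ZDHHC2 (0.0823). IGFBP2 lay nearest to the replication checkpoint gene CLSPN (0.111), the lipase LIPG (0.184) and HOXB6 (0.189), and IGFBP3 to TINCR (0.0917), NAT1 (0.0957) and FAM151B-DT (0.113). IGFBP5 lay nearest to NPY1R (0.515), KRT19 (0.739) and MDK (1.14), of which NPY1R and KRT19 are among the 12 genes high in WT replicate 1. IGFBP4 had no near match, with SH2D5 (0.760), STMN3 (0.790) and PPARGC1A (0.792) first.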

How the data were processed

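RNA was sequenced from 9 MCF-10A libraries, 3 per genotype. Per the file headers, the deposited gene counts in 2 tables were made with featureCounts 2.0.0 and GENCODE 32 on hg38, over exons, without strand, each mate counted by itself and reads counted for every overlapping gene. Per the submitters' processing notes, STAR, SAMtools 1.5, cutadapt, FastQC and Trim Galore 0.4.0 were also used; their settings are not given in the sources used here. Names came from GENCODE 44, which matched 60295 of 60609 identifiers. All count columns were used.

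The deposited counts were fitted with edgeR 4.0.16 in R 4.3.3 (filterByExpr, TMM, quasi-likelihood F test, 1 genotype model of 9 libraries, Benjamini-Hochberg adjustment, threshold 0.05). The test was checked on simulated data. CPM used TMM-scaled totals, and SE is the absolute log2 change over the square root of F. DESeq2 1.42.0, other scalings, filters, sample sets, a replicate block and leaving out each library were alternatives. Beside the 6 members, genes of 4 lists were named if called at 2-fold or more with a group mean of at least 1 CPM, at most 6 a list, and 3 genes per member by nearest pattern; IGF1R, IGF1, IGF2 and PAPPA were added for their role. Members, lists and the region of chromosome 7 were chosen with earlier results of these data known.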

Additional observations from a re-analysis of the deposited data

Results flagged for a closer look

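IGFBP2 was singled out, from these same values, because its changes against WT had opposite signs in the knock-in lines. IGFBP6 and IGFBP7 also differed between these lines, by -3.11 ± 0.16 and -1.27 ± 0.07, but were lower than WT in both. IGFBP2 was higher than WT in 3 of 3 E545K libraries (log2 change 1.48 ± 0.14) and lower than WT in 3 of 3 H1047R libraries (-0.55 ± 0.14). The difference between these changes, H1047R minus E545K, was -2.03 ± 0.13 (edgeR adjusted p = 9.68e-09) and ran from -2.26 to -1.91 over the 17 alternatives. The WT libraries are shared and drop out of this difference.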

How the results depend on the processing

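IGFBP2, IGFBP3, IGFBP6 and IGFBP7 kept direction and call in all 3 comparisons under all 17 alternatives. Without WT replicate 1 the change reversed for IGFBP4 in E545K against WT (0.49) and for IGFBP5 in E545K against WT (0.090) and in H1047R against WT (0.51), from edgeR adjusted p = 0.183, 0.0144 and 0.0112 to 0.529, 0.877 and 0.203. Over the 9 fits that each left out 1 library these 3 changes ran from -1.59 to 0.49, from -3.72 to 0.090 and from -3.30 to 0.51. IGFBP5 also lost its call in E545K against WT without E545K replicate 1 (-3.31, 0.0519) or 2 (-3.05, 0.0596), and in H1047R against WT without H1047R replicate 2 (-2.62, 0.0532). IGFBP4 was called in E545K against WT with no filter on low counts (-1.18, 0.00494) and with only the groups compared (-1.18, 0.0199), and DESeq2 lost it in H1047R against E545K (-1.76, 0.0757). Without WT replicate 1 the members' median log2 change also reversed in E545K against WT, from -0.91 to 0.29, and went from -2.35 to -0.91 in H1047R against WT, with 3 instead of 5 members called at 2-fold or more, an alternative added after seeing the data. The cause was not tested. A filter of 1 CPM in 3 libraries dropped IGFBP4 and IGFBP5. DESeq2 gave IGFBP5 no p-value.

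Replicate numbers did not pair the libraries, since same-numbered libraries correlated at -0.0348 to 0.0227. With the replicate block 5 members were called in each comparison. Among all genes the block gave 9441 called in E545K against WT, 14394 in H1047R against WT and 13731 in H1047R against E545K, against 9663, 14651 and 14040. IGFBP5 in H1047R against WT was then at -1.69 (adjusted p = 0.0696). Leaving out 1 library gave 4 to 5, 4 to 6 and 4 to 5 members called. Without WT replicate 1 these were 4, 4 and 5, beside 30.4%, 49.1% and 51.3% of all genes. The shares with all 9 libraries were 36.6%, 55.5% and 53.2%. Naming nearest genes by Pearson correlation shared 2 of 3 names for IGFBP5, 1 for IGFBP7 and 0 for the others. Counts of 24 to 76 limit IGFBP4, and 30 to 58 limit IGFBP5 outside WT replicate 1 and H1047R.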

Other observations

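The genes beside the members gave further values. SPRYD3, 18.0 kb from IGFBP6, fell in both knock-in lines against WT (-0.24 ± 0.05 in E545K and -0.49 ± 0.05 in H1047R). CSAD on the other side of IGFBP6 was at 0.07 ± 0.10 in E545K, not called, and rose in H1047R (0.81 ± 0.10). NOA1, 53.2 kb from IGFBP7, fell in both lines (-0.11 ± 0.04 and -0.19 ± 0.04). IGFBP4 stands between TOP2A, the topoisomerase of dividing cells, and TNS4, a focal adhesion gene. TOP2A rose in E545K (0.47 ± 0.08) and fell in H1047R (-2.13 ± 0.08), while TNS4 fell in both (-0.16 ± 0.04 and -0.46 ± 0.04). RPL37A, 53.6 kb from IGFBP2, fell in E545K (-0.23 ± 0.08) and was at -0.04 ± 0.08 in H1047R, not called. All these changes are log2 values from the same edgeR fit.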
